A study of Mus musculus with 10 samples.

Results

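The CCN family is a group of 6 secreted proteins, and its genes, Ccn1 to Ccn6, were found by symbol among the 53465 genes counted in the pinna prominence, the bud of the outer ear, in embryos at E14.5. The family was chosen by the lower counts of Ccn3 in mEC1dup/dup, so the difference between genotypes in its 6 members is given as a description without a test. Whole pinna prominences were compared between 5 wild-type (WT) embryos and 5 mEC1dup/dup embryos, both of C57BL6 background, with 1 library per embryo. The mEC1dup/dup embryos carry a CRISPR/Cas9 knock-in of an additional copy of mEC1, an enhancer of the homeobox gene Hmx1, on each allele, and are labelled knock-in. The whole organ bud was homogenized, so fewer cells of a type and less RNA per cell cannot be told apart in these values.

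CCN proteins are matricellular, that is, they sit in the extracellular matrix and modulate signalling more than they build the matrix. A complete CCN protein has an insulin-like growth factor binding module, a von Willebrand factor type C module, a thrombospondin type 1 module and a C-terminal cystine knot, through which it binds integrins, heparan sulphate proteoglycans, LRP receptors and growth factors. Ccn1 (Cyr61) and Ccn2 (Ctgf) are induced quickly by serum, TGF-beta and mechanical tension, in part through YAP and TEAD, and Ccn2 is needed for growth of cartilage. Ccn3 (Nov) binds integrins and Notch1 and often opposes Ccn2, Ccn4 (Wisp1) is a WNT-responsive gene of osteogenic and mesenchymal cells, Ccn5 (Wisp2) lacks the C-terminal knot, and loss of human CCN6 (WISP3) causes a progressive disease of articular cartilage.

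In the GENCODE annotation of GRCm39 each gene has 5 exons in its canonical transcript. Ccn3 (ENSMUSG00000037362) lies on the plus strand at chr15:54609012-54620154, and Ccn4 (ENSMUSG00000005124) on the plus strand of the same chromosome at chr15:66763060-66795050. Ccn2 (ENSMUSG00000019997) lies on the plus strand at chr10:24471333-24474900 and Ccn6 (ENSMUSG00000062074) on the minus strand at chr10:39026966-39041928. Ccn1 (ENSMUSG00000028195) lies on the minus strand at chr3:145352720-145355738, and Ccn5 (ENSMUSG00000027656) on the plus strand at chr2:163662753-163675066.

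The 250 bases before the start site of the canonical transcript were read from GRCm39 for Ccn3 and for Ccn1, to show how the promoter of a tension-responsive member differs from that of Ccn3. They are printed 5′ to 3′ on the strand of the gene, with capitals for the TEAD motif GGAATG, or CATTCC where it lies on the opposite strand, and for the TATA box TATAAA. The windows are chr3:145355739-145355988 for Ccn1 (minus strand) and chr15:54608762-54609011 for Ccn3 (plus strand).
Ccn1: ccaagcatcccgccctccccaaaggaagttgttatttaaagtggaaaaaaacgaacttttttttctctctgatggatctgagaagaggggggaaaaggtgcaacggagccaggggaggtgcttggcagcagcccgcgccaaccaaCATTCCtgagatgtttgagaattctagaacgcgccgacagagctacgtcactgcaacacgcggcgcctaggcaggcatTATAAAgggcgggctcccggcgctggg
Ccn3: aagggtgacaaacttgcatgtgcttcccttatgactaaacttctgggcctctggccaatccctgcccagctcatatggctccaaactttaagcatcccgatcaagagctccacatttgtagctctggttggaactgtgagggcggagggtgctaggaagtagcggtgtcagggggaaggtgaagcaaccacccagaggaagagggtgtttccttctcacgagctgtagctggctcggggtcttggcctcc
The Ccn1 window holds the TEAD motif once, 105 to 100 bases before the start site and on the opposite strand, letters found in 11.8% of 16321 promoters of the same length. It also holds a TATA box 27 to 22 bases before the start site, letters found in 8.09% of promoters. The Ccn2 window, not printed, holds the TEAD motif 3 times on the strand of the gene. These lie 98 to 93, 33 to 28 and 24 to 19 bases before the start site, and 3 copies were found in 0.0613% of promoters. The Ccn3 window and that of Ccn4 hold none of the 6 motifs searched on both strands, which were also the core CAAGTG bound by HMX proteins (10.96% of promoters), CAGACA of SMAD proteins (14.9%), TGANTCA of AP-1 (4.68%) and the CArG box of serum response factor (1.20%). The HMX core was in the windows of Ccn5, 189 to 184 bases before the start site, and Ccn6 (on the opposite strand), and each of these also holds 1 SMAD motif. Binding was not measured, and a match of letters is not a site in use.

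The 10 libraries held 17461544 to 18462073 counts each. Hmx1 was at 21.7 to 29.1 CPM (counts per 1000000, on library sizes scaled by TMM) in WT and at 52.8 to 77.5 CPM in mEC1dup/dup, as the labels imply. By edgeR's quasi-likelihood test over 16426 genes, a gene was called if its Benjamini-Hochberg adjusted p did not exceed 0.05 and its average log2 CPM reached 1. This gave 298 calls lower (1.81%) and 137 higher (0.834%) in mEC1dup/dup, or 2.65% of genes in either direction. The genotypes also differed in other respects. The WT libraries held 2 to 5 counts of Xist, while the mEC1dup/dup libraries 1 to 5 held 12812, 19040, 18165, 2096 and 0, and embryonic globins made up 18.4% to 23.3% of globin counts in WT and 32.5% to 35.6% in mEC1dup/dup.

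Ccn3 was lower in mEC1dup/dup. It was at 42.6, 39.6, 38.3, 42.2 and 43.5 CPM in WT replicates 1 to 5 and at 27.2, 23.1, 27.9, 22.1 and 28.4 CPM in mEC1dup/dup replicates 1 to 5. Every mEC1dup/dup library was below every WT library, and the lowest WT value stood 34.8% above the highest mEC1dup/dup value. The mean fell from 41.2 ± 2.16 CPM to 25.7 ± 2.93 CPM (SD, n = 5 each), which is 37.6% lower. The fitted log2 fold change was -0.68 (SE 0.08), and the difference in size ranked 115 among the 435 genes called in either direction. These values rest on 410 to 785 counts per library, and no exon of another annotated gene overlaps those of Ccn3.

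Of the 6 members, 5 passed the filter on low counts. All 5 had a log2 fold change below 0, beside 51.2% of all genes tested. With the embryonic globin share in the model 3 of the 5 were below 0, while Ccn1 (0.18, SE 0.45) and Ccn2 (0.25, SE 0.48) were not. With genotype alone in the model 1 of the 5, Ccn3, was called lower, where 1.81% of all genes tested were. Ccn3 was also the 1 member whose groups did not overlap with all mEC1dup/dup libraries lower, where 2.75% of all genes tested were so separated, 2.33% with all mEC1dup/dup libraries higher and 5.07% in either direction. Since the family was chosen with the call of Ccn3 known, nothing is read from these shares.

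**Figure D1:**
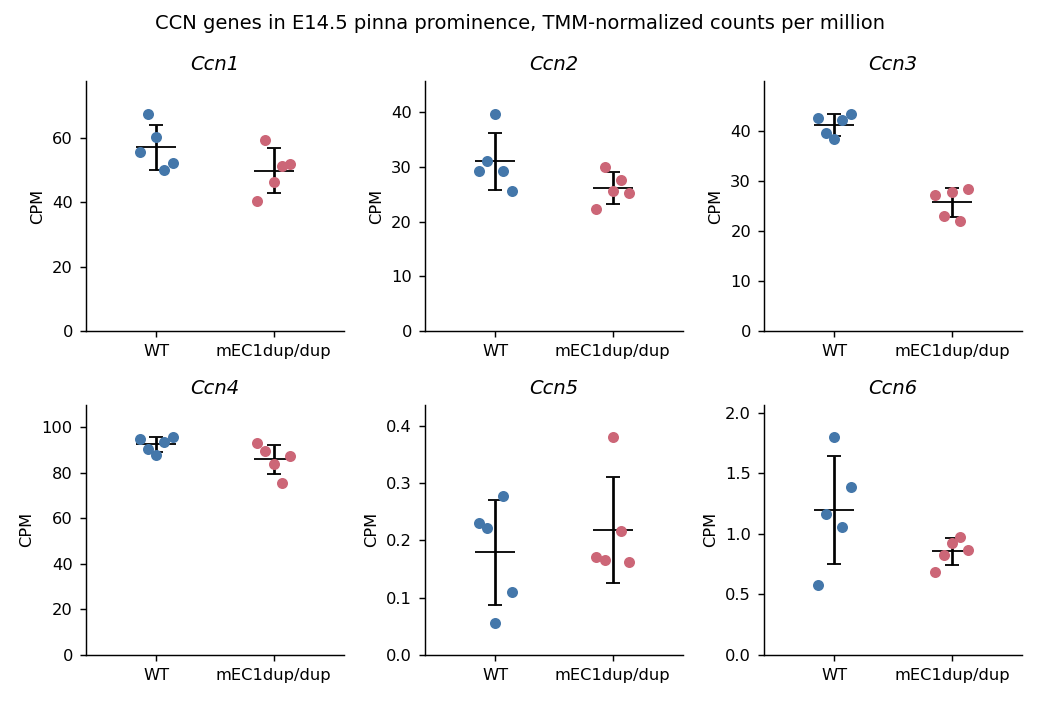
CPM of each CCN gene in single libraries (points, WT and mEC1dup/dup, 5 each) with the mean and SD, on an axis of its own for each gene. The 5 mEC1dup/dup libraries sit between 22.1 and 28.4 CPM for Ccn3, below the WT libraries at 38.3 to 43.5, while the groups overlap for Ccn1, Ccn2, Ccn4, Ccn5 and Ccn6.

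Ccn1 and Ccn2, the rapidly induced members, were not called. Ccn1 was at 55.5, 67.4, 60.2, 50.0 and 52.0 CPM in WT and at 40.4, 59.2, 46.2, 51.3 and 51.9 CPM in mEC1dup/dup, with a log2 fold change of -0.20 (SE 0.10). Its groups overlapped, with 2 of 5 mEC1dup/dup libraries below the lowest WT library. Ccn2 was at 29.3, 31.1, 39.7, 29.3 and 25.6 CPM in WT and at 22.3, 30.04, 25.6, 27.7 and 25.3 CPM in mEC1dup/dup, with a log2 fold change of -0.24 (SE 0.11). Here 3 of 5 mEC1dup/dup libraries lay below the lowest WT library, by a margin that was small for replicates 3 and 5. Exons on the opposite strand cover 23.0% of exonic Ccn1 sequence (Gm17501, 38 to 65 counts) and 36.5% of that of Ccn2 (Gm15270, 2 to 9 counts), and counts with no stated use of strand cannot assign the reads of the shared bases.

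Ccn4, the WNT-responsive member, had the narrowest relative spread in WT and was not called. It was at 94.7, 90.2, 87.8, 93.6 and 95.4 CPM in WT and at 92.7, 89.3, 83.8, 75.6 and 87.3 CPM in mEC1dup/dup, with a log2 fold change of -0.11 (SE 0.05). The groups overlapped, and the lowest value was that of mEC1dup/dup replicate 4, which was also lowest for Ccn3. Exons of the antisense gene Gm46514, whose counts were not analysed here, cover 6.79% of exonic Ccn4 sequence.

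Ccn5 and Ccn6 were close to the limit of detection. Ccn5 had 1 to 5 counts in WT and 3 to 7 in mEC1dup/dup (16 and 20 in all), failed the filter on low counts and is given no fold, and 3 counts correspond to 0.162 to 0.173 CPM. Ccn6 had 10, 21, 32, 19 and 25 counts in WT and 12, 15, 17, 18 and 16 in mEC1dup/dup. Its groups overlapped, the log2 fold change was -0.48 (SE 0.28), and its average log2 CPM of 0.18 was under the minimum for a call. The exons of the antisense gene Tube1, with 181 to 228 counts, overlap 12.2% of the exonic bases of Ccn6, so reads from Tube1 can be part of its few counts.

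Levels of different genes were compared as CPM per kilobase of exon, over the union of the exons of each gene. In WT the order was Ccn1 (28.1 ± 3.44), Ccn4 (15.2 ± 0.530), Ccn2 (9.73 ± 1.65), Ccn3 (7.27 ± 0.381), Ccn6 (0.303 ± 0.114) and Ccn5 (0.0829 ± 0.0426 CPM per kilobase, SD, n = 5). No neighbours in this order overlapped between the lowest and highest WT libraries. In mEC1dup/dup the order was the same, with Ccn3 at 4.54 ± 0.516 CPM per kilobase, and the values of Ccn6 and Ccn5 overlapped. Ccn3 made up 12.0% ± 1.30 of the summed family level per kilobase of exon in WT and 8.84% ± 1.38 in mEC1dup/dup. These shares depend on the length used and are larger per kilobase of coding sequence.

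The order of the 4 abundant members depends on the length used. Per kilobase of coding sequence, a measure added after the data had been seen, Ccn4 came first in WT (83.9 ± 2.93 CPM per kilobase), before Ccn1 (50.2 ± 6.15), Ccn3 (38.8 ± 2.03) and Ccn2 (29.7 ± 5.04). The values of Ccn3 and Ccn2 then overlapped in WT, and in mEC1dup/dup they overlapped at 24.2 ± 2.76 for Ccn3 and 25.1 ± 2.75 for Ccn2. Under both lengths Ccn1 to Ccn4 stood far above Ccn6 and Ccn5.

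**Figure D2:**
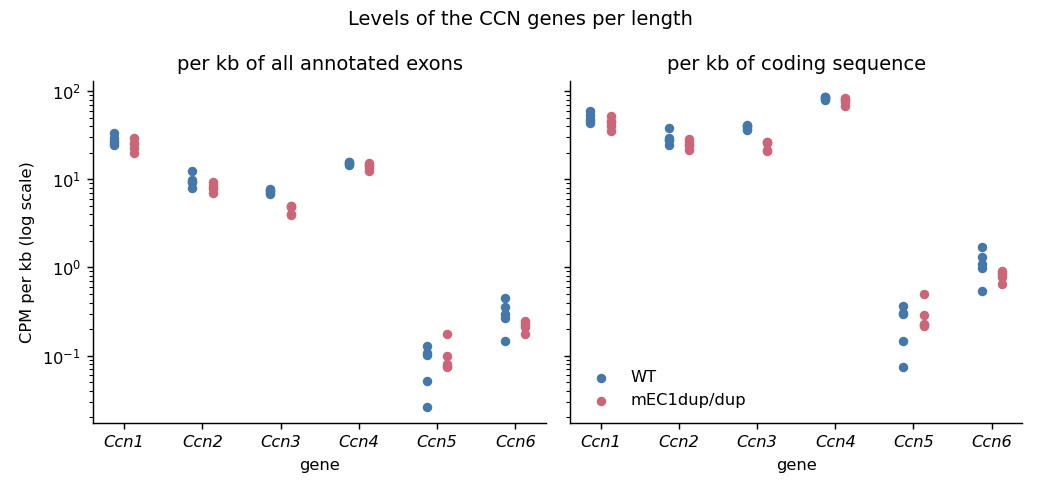
Level of each CCN gene on a log axis, as CPM per kilobase of exon (left) and of coding sequence (right), with single libraries as points for WT and mEC1dup/dup. Per kilobase of exon, Ccn1, Ccn4, Ccn2 and Ccn3 lie between 7.27 and 28.1 on average in WT, and Ccn6 and Ccn5 at 0.303 and 0.0829.

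The spread of the members among embryos of 1 genotype was set beside counting error. In WT the coefficient of variation of the CPM was 3.49% for Ccn4 and 5.24% for Ccn3, against 2.46% and 3.69% that counting error alone would give. It was 12.3% for Ccn1 and 17.0% for Ccn2, where counting error gives 3.13% and 4.25%. In mEC1dup/dup it was 14.1% for Ccn1, 10.9% for Ccn2, 11.4% for Ccn3 and 7.63% for Ccn4, against 3.32%, 4.58%, 4.62% and 2.53% from counting error. The measured spread was above the value from counting error for all 4 genes in both genotypes, by the least for Ccn4 and Ccn3 in WT. Neither this excess nor its differences between genes and genotypes were tested.

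Whether members moved together among embryos was asked after removal of the genotype means, a quantity that the difference between genotypes does not enter. Over the 10 libraries Ccn1 and Ccn2 had a Pearson r of 0.677 (exact permutation p = 0.0370, adjusted p = 0.128 over 10 pairs) and a Spearman rho of 0.794 (exact permutation p = 0.0114, adjusted p = 0.114). Without the 2 libraries in which Ccn1 lay farthest from its median, r was 0.495, and Ccn2 did not enter this choice. Ccn2 and Ccn3 ran in opposite directions, with r of -0.689 (exact permutation p = 0.00799, adjusted p = 0.0799) and rho of -0.648 (exact permutation p = 0.0246, adjusted p = 0.123). Leaving out the 2 libraries in which Ccn2 lay farthest from its median gave r of -0.587. Ccn4 and Ccn6 had r of -0.468 (exact permutation p = 0.0384, adjusted p = 0.128) and rho of -0.588 (exact permutation p = 0.0683, adjusted p = 0.173). Leaving out the 2 libraries in which Ccn4 lay farthest from its median gave r of -0.281. No pair among the 10 passed the adjustment (all tests two-sided), so co-variation of members was not shown at this number of embryos. The points share library depth and tissue dissection.

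**Figure D3:**
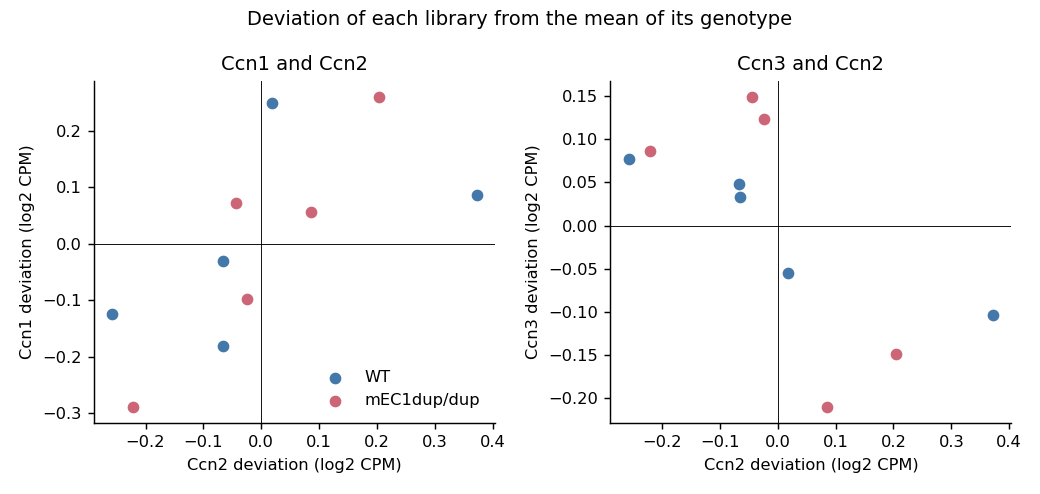
Deviation of single libraries from their genotype mean in log2 CPM, for Ccn1 and for Ccn3 against Ccn2 on the horizontal axis (10 points each, coloured by genotype). Ccn1 and Ccn2 rise together (r = 0.677) while Ccn3 and Ccn2 run in opposite directions (r = -0.689), and neither pair passed adjustment over 10 pairs.

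The genes most alike each member were found by the same deviations over 10 libraries among 14084 genes with an average log2 CPM of at least 1, as a description. For Ccn3 they included Klf16 (r = 0.963), a zinc finger transcription factor, and Dusp10 (r = 0.926), a phosphatase of MAP kinases. For Ccn2 they were Slc26a2 (r = 0.958), the sulphate transporter of cartilage, Itga10 (r = 0.945), a collagen-binding integrin chain of chondrocytes, and Ficd (r = 0.924). For Ccn1 they were Tmem185a (r = 0.941), Slc25a45 (r = 0.922) and Colgalt2 (r = 0.922), and for Ccn4 Arhgap29 (r = 0.960), Hspb3 (r = 0.930) and Egr3 (r = 0.930). For Ccn6, compared with 14085 genes, they were Tarbp2 (r = 0.922), Zfp783 (r = 0.922) and Sox8 (r = 0.916). These are the highest values among all these genes over 10 libraries, and 0.518% of genes were over 0.8 with Ccn3.

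The receptors and binding partners of CCN proteins were described as a list of 20 genes. Of these, 2 were called lower (1.81% over all genes tested), none higher, and 17 of 20 had a log2 fold change below 0, with a median of -0.17 beside -0.00 over all genes tested. At an unadjusted p under 0.05 there were 10 lower and 0 higher. Over all 16426 genes tested, 1492 were lower and 1166 higher at this p, and 51.2% had a log2 fold change below 0. With the embryonic globin share in the model, which separates the same libraries as the genotype, 2 of 20 were below 0 with a median of 0.24. With Xist in the model 17 of 20 were below 0. Igf2r, the receptor that clears insulin-like growth factor 2, was at 323, 278, 313, 249 and 313 CPM in WT and at 247, 253, 225, 226 and 253 CPM in mEC1dup/dup (log2 fold change -0.29, SE 0.07, edgeR adjusted p = 0.0377). Its groups overlapped in the range of WT replicate 4. Itga2b, the integrin chain of platelets and megakaryocytes, was at 7.68, 7.75, 8.53, 5.48 and 5.87 CPM in WT and at 4.46, 4.85, 4.40, 4.48 and 5.20 CPM in mEC1dup/dup (log2 fold change -0.59, SE 0.14, edgeR adjusted p = 0.0416). All of its mEC1dup/dup libraries were below all WT libraries. Both calls were fragile, since each was kept in 2 of the 10 fits that left out 1 library, without WT replicate 4 or mEC1dup/dup replicate 1 for Igf2r and without WT replicate 4 or 5 for Itga2b. With the globin share in the model the log2 fold changes were 0.24 for Igf2r and 0.65 for Itga2b, neither called. Both calls were also lost with Xist in the model.

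The partners most often named for Ccn3 did not pass the test. Notch1 had a log2 fold change of -0.25 (edgeR adjusted p = 0.161), Itgb5 of -0.06, Itgav of -0.13, Itgb3 of -0.09 and Itga5 of 0.05. Itgb1, the shared beta chain of many integrins, was at -0.09 (edgeR adjusted p = 0.167). All mEC1dup/dup libraries were below all WT libraries for Itgb1, as for 2.75% of all genes tested. The matrix and proteoglycan partners were at -0.34 for Hspg2 (perlecan), -0.69 for Acan (aggrecan), -0.21 for Fn1 (fibronectin) and -0.21 for Sdc4. None of these was called.

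The Hippo pathway controls YAP and TAZ, which act with TEAD proteins on Ccn1 and Ccn2, and none of its 21 listed genes was called by edgeR. At an unadjusted p under 0.05 there were 0 lower and 2 higher, limma-voom called 0, and DESeq2 called 2 higher. The log2 fold change was 0.08 for Yap1, -0.10 for Wwtr1 (TAZ), -0.01 for Tead1, 0.14 for Tead2, 0.09 for Tead3 and -0.05 for Tead4. All mEC1dup/dup libraries were above all WT libraries for Tead2, as for 2.33% of all genes tested. Amot was at 0.24 (edgeR adjusted p = 0.0634) and Vgll2 at -0.32 (edgeR adjusted p = 0.522), both with overlapping groups. Of 20 other genes known as YAP and TEAD targets, 1 was called lower, 0 higher (4 lower and 1 higher at an unadjusted p under 0.05), and 12 had a log2 fold change below 0 with a median of -0.04. Over all genes tested, 1.81% were called lower and 0.834% higher. The called gene was Nt5e (CD73, the enzyme that makes adenosine outside cells), at 64.9, 51.7, 51.6, 48.0 and 45.5 CPM in WT and at 49.3, 33.8, 37.0, 32.3 and 32.5 CPM in mEC1dup/dup (log2 fold change -0.50, SE 0.12, edgeR adjusted p = 0.0458). The groups overlapped through mEC1dup/dup replicate 1, and the call was kept in 3 of 10 fits with 1 library left out, without WT replicate 4, WT replicate 5 or mEC1dup/dup replicate 1. Ankrd1, Amotl2 and Axl, also common readouts of YAP, were at -0.03, 0.05 and -0.05. With the globin share in the model 3 of the 20 targets were below 0 with a median of 0.29, and Nt5e was at 0.12 and not called. Its call was also lost with Xist in the model.

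TGF-beta signalling induces Ccn1 and Ccn2, and of 23 listed genes of the pathway and its targets 1 was called lower and 1 higher (4 and 6 at an unadjusted p under 0.05), 10 had a log2 fold change below 0, and the median was 0.04. Over all 16426 genes tested, 1.81% were called lower and 0.834% higher, and 1492 were lower and 1166 higher at that unadjusted p. Ltbp2, a matrix protein of elastic fibres related to the latent TGF-beta binding proteins, was at 26.1, 21.98, 20.8, 12.9 and 16.8 CPM in WT and at 10.1, 14.0, 9.72, 8.25 and 9.15 CPM in mEC1dup/dup (log2 fold change -0.94, SE 0.18, edgeR adjusted p = 0.0162). Only mEC1dup/dup replicate 2 reached into the WT range, and the call was lost without mEC1dup/dup replicate 3 (adjusted p = 0.0566). Tgif1, a homeobox repressor of SMAD-driven transcription, was at 52.5, 52.9, 53.8, 47.1 and 49.8 CPM in WT and at 62.3, 61.1, 62.2, 61.2 and 56.6 CPM in mEC1dup/dup (log2 fold change 0.24, SE 0.05, edgeR adjusted p = 0.0178). Its groups did not overlap, and the call was lost without mEC1dup/dup replicate 2 (adjusted p = 0.0533) or 3 (adjusted p = 0.0651). The ligands Tgfb1 and Tgfb2 were at -0.25 and 0.17, neither of them called. With the globin share in the model 4 of the 23 genes were below 0 with a median of 0.16, Ltbp2 was at 0.30 and Tgif1 at 0.39. Neither gene was called in that fit, with Xist in the model or without the mEC1dup/dup libraries with over 10000 Xist counts.

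**Figure D4:**
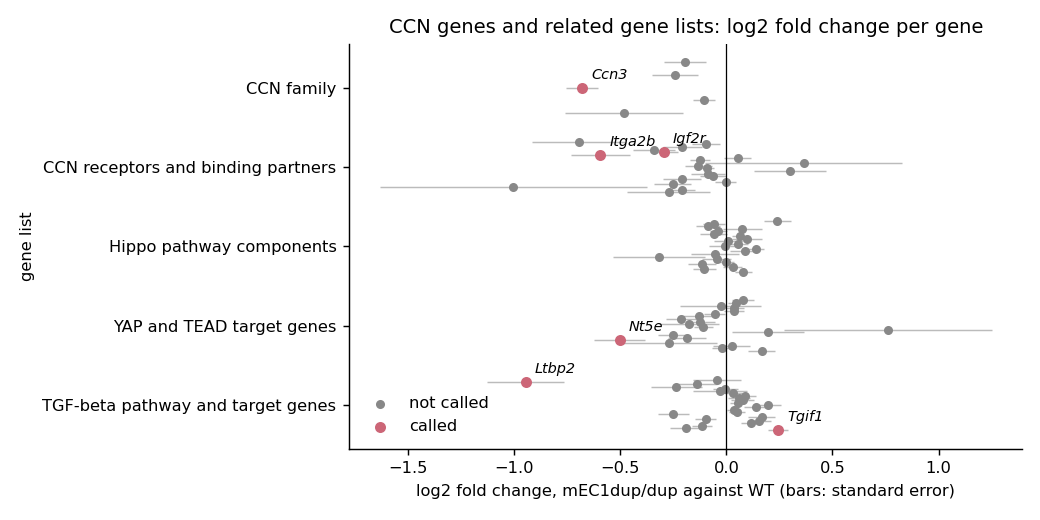
Log2 fold change (mEC1dup/dup against WT) of every tested gene of the CCN family and of the 4 lists, as points with their SE, and called genes in red with their symbols. The median is -0.17 for receptors and binding partners, -0.00 for Hippo components, -0.04 for YAP and TEAD targets and 0.04 for TGF-beta genes.

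Some markers of myocytes, perimysium and tendon, and epithelium were called lower in mEC1dup/dup, while few or none of those of cartilage, vessels and Schwann cells were, and their part in the difference in Ccn3 was not tested. Beside 1.81% of all genes tested, of 10 skeletal myocyte markers 3 were called lower (Acta1, Ckm and Myh3), and their summed level ranged from 2242 to 3462 CPM in WT and from 1499 to 2352 CPM in mEC1dup/dup. The other myocyte markers were not called, from 0.12 for Myog and 0.09 for Myod1, the early regulators, to -0.15 for Tnnc1, -0.22 for Actc1 and -0.52 for Mylpf. Of 7 perimysial and tendon markers 3 were called lower (Tnmd, C1qtnf3 and Fmod), at 326 to 411 CPM in WT and 295 to 330 CPM in mEC1dup/dup. The other markers of this list were not called and did not share a direction, with log2 fold changes of 0.24 for Scx, 0.29 for Thbs4, 0.20 for Mkx and -0.17 for Prss35, and 4 of the 7 were lower and 2 higher at an unadjusted p under 0.05. Of 8 epithelial markers 5 were called lower (Krt5, Krt14, Krt1, Krt10 and Perp), at 887 to 1695 CPM in WT against 649 to 861 CPM in mEC1dup/dup. The other epithelial markers were not called, at -0.50 for Krt15, -0.35 for Trp63 and 0.04 for Epcam. Chondrocyte markers gave 0 calls of 8 (3 lower and 0 higher at an unadjusted p under 0.05). Yet 7 of the 8 had a log2 fold change below 0, with a median of -0.42. For the myocyte markers 8 of 10 were below 0, with a median of -0.44. The chondrocyte markers were at 5625 to 9210 CPM in WT against 2490 to 7212 CPM in mEC1dup/dup. The value of 2490 CPM was replicate 1, and the other mEC1dup/dup libraries were at 5250.1 CPM or more. Endothelial markers gave 0 calls of 6 (1 lower, 0 higher) at 439 to 553 CPM against 463 to 525 CPM, and Schwann cell markers 0 of 6 (1 lower, 0 higher) at 200.4 to 312 CPM against 183 to 255 CPM. Of 7 mural cell markers 1 was called lower (Rgs5), at 655 to 793 CPM against 682 to 785 CPM. Some of these marker calls were fragile: of the 10 fits without 1 library, C1qtnf3 was called in 1, Myh3 in 3, Rgs5 and Krt14 in 4 each and Krt5 in 5, and Acta1, Ckm, Tnmd, Fmod, Krt1, Krt10 and Perp in all 10. All of these marker calls were lost with Xist or the globin share in the model, and with the globin share all 5 called epithelial markers and Rgs5 turned to a log2 fold change above 0 (1.13 for Krt1, 0.89 for Krt10, 0.64 for Perp). No marker was at 0 counts.

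The level of Ccn3 was read beside the Xist and globin differences. The mEC1dup/dup library with 0 counts of Xist, replicate 5, was at 28.4 CPM of Ccn3 and the one with 2096, replicate 4, at 22.1 CPM, the highest and the lowest of the group and both below every WT library. Without the 3 libraries with over 10000 Xist counts the log2 fold change was -0.71, -0.59 with Xist in the model as a covariate, and -0.76 with the globin share in it. The size was thus close to that with all libraries, while the call was lost in each of the 3 fits, in which 1, 3 and 0 genes were called in all (1853, 1535 and 797 at an unadjusted p under 0.05). The globin share separates the same libraries as the genotype, so these cannot be told apart, while Xist does not, since replicate 5 was at the level of WT.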

How the data were processed

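Poly(A) RNA from 5 WT and 5 mEC1dup/dup pinna prominences at E14.5 was sequenced, and each of the 10 embryos gave 1 library, with biological replicates described as siblings from separate litters. The authors trimmed reads with fastp, checked them with FastQC, aligned them to GRCm39 with STAR and deposited raw counts per gene from featureCounts. The annotation release, use of strand and treatment of reads with several matches are not given in the sources used here, and the kits named do not mark strand.

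Symbols came from GENCODE for 49355 of 53465 identifiers, and 0.111% of counts fell on the others. Counts were filtered with filterByExpr by genotype, scaled by TMM and fitted with genotype alone by the quasi-likelihood test of edgeR version 4.0.16 in R version 4.3.3. The SE is the size of the log2 fold change divided by the square root of F. Alternatives used limma-voom (limma version 3.58.1), DESeq2 version 1.42.0, other scalings, no filter, covariates, a replicate block and each library left out. Every pair of libraries of 1 genotype differed beyond sampling noise, with a chi-square of 2.48 to 16.8 times its degrees of freedom. Reads carry no molecular identifiers, so counting error is the least error, and low counts limit Ccn5 and Ccn6.

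Correlations used deviations from genotype means with exact permutation within genotypes (14400 arrangements), adjusted over 10 pairs. The members and the gene lists were chosen with earlier results of these data known. The text names the members, the 3 genes most alike each of them, and the called genes of each list other than markers. Other list genes are named as well-known partners or transducers, chosen after their values were seen. Some items that these rules would name are not reported here. Motif searches covered 250 bases before the canonical start of 16321 genes.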

Additional observations from a re-analysis of the deposited data

Results flagged for a closer look

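Among 24 groups of 5 libraries, formed by the members, the called list genes and Hmx1 in each genotype, 3 had a library far from the others by Dixon's criterion, which chance alone meets in about 1 in 20 groups. Ccn5 in mEC1dup/dup replicate 3 was at 0.380 CPM with the nearest library at 0.216 CPM, a difference of a few counts. Nt5e in mEC1dup/dup replicate 1 was at 49.3 CPM with the nearest at 37.0 CPM, and Tgif1 in mEC1dup/dup replicate 5 was at 56.6 CPM with the nearest at 61.1 CPM. No library of Ccn1, Ccn2, Ccn3, Ccn4 or Ccn6 was set apart in this way.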

How the results depend on the processing

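The log2 fold change of Ccn3 stayed between -0.76 and -0.59 in every fit run. It was -0.72 to -0.63 in the 10 fits without 1 library. These fits repeat the comparison by which the family was chosen and are a description. Its call was lost with Xist or globin as a covariate and without the 3 libraries with over 10000 Xist counts, an alternative added after the data had been seen, and in no other fit. Leaving out 1 library gave -0.26 to -0.12 for Ccn1, -0.30 to -0.14 for Ccn2, -0.14 to -0.06 for Ccn4 and -0.65 to -0.29 for Ccn6. With the globin share as a covariate they were 0.18 (SE 0.45), 0.25 (SE 0.48), -0.22 (SE 0.23) and -1.17 (SE 1.28). The sign changed for Ccn1 and Ccn2, and each of these values was smaller in size than its SE. No direction is read from that fit, for these genes or the lists, since the globin share separates the same libraries as the genotype. The SE of Ccn3 was 0.33 in that fit beside 0.08.

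Genes called lower numbered 298, and 510 with DESeq2, 488 with the replicate block, 1 with Xist, 0 with globin (388 at an unadjusted p under 0.05), 0 without the 3 libraries (1153) and 62 at an adjusted p of at most 0.01. Genes called higher numbered 137, and 321 with DESeq2, 2 with Xist, 0 with globin (409), 1 without the 3 libraries and 16 at 0.01. Without 1 library they were 120 to 476 lower (lowest without mEC1dup/dup replicate 3, highest without WT replicate 4) and 34 to 179 higher, with the same 2 libraries at the ends. Receptors called lower were 4 with DESeq2, 1 with limma-voom and 0 to 7 without 1 library. YAP and TEAD targets called lower were 2 with DESeq2 and 2 with the block, and 0 to 4 without 1 library. TGF-beta genes called lower were 2 with DESeq2 and 2 with the block, and 0 to 6 without 1 library, and those higher 0 to 1. The most calls in these lists came without WT replicate 4. Each of these list counts was 0 with Xist, with globin and without the 3 libraries. Hippo components called higher were 2 with DESeq2, 1 without a filter, 1 with the block and 0 to 1 without 1 library (1 without mEC1dup/dup replicate 4).

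The labels number replicates 1 to 5 in both genotypes, but same-numbered libraries are different embryos. Their deviations correlated at 0.162 on average (-0.0558 to 0.345), beside -0.0403 on average and 0.272 at most for other pairs. Because genotype means were removed, the average over other pairs largely follows from that of same-numbered pairs and is not a separate comparison. The same-numbered correlation was above 0 on average but not in every pair, and an effect shared by same-numbered libraries was not tested. The labels state no pairing, so the numbers were not taken as one. The block gave -0.68 for Ccn3 and kept 405 of the 435 calls, with 488 genes called lower and 200 higher in all. Among the receptors the count of 2 lower was the same under the block but the genes were not, since Itga2b was no longer called (-0.58) and Acan was (-0.73). The chondrocyte marker Matn1 (-0.75) was also called under the block.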
